A study of Mus musculus with 6 samples.

Results

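The genes described here move and hold melanosomes, the pigment granules of melanocytes, along actin, or bring cargo to them. They are Rab27a, Mlph, Myo5a, Mreg, Rab38 and Rab32, 6 of the 18324 gene rows of the table, matched by mouse symbol from a list of names. All 6 had enough counts to be tested, among 11324 genes. They were measured in B16-F10 cells, an established mouse melanoma line that was cultured in DMEM with fetal bovine serum, with no gene edit or drug named in the labels for either group. High-pigmented and low-pigmented cells, called HPC and LPC in the labels, were separated by fluorescence-activated sorting on the light that intracellular melanin scatters, and 3 libraries of each were sequenced from the 3′ ends of their mRNA. The groups are thus fractions of 1 cultured line set apart by a sort gate, not treatments. Each HPC library shares a title suffix with 1 LPC library, and these pairs are called pair 1 (suffix 16-9-15), pair 2 (18-8-14) and pair 3 (1-9-14). The labels do not say that the libraries came from separate cultures, so p-values measure the spread between these libraries, which may be technical.

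Melanosomes travel outward on microtubules and are then caught on the actin mesh under the cell surface. The GTPase Rab27a sits on the melanosome membrane and binds melanophilin (Mlph), which in turn binds the motor myosin Va (Myo5a). Mice that lack any of these proteins (the ashen, leaden and dilute coat mutants) make pigment, but their melanosomes gather around the nucleus and the coat is pale. In people, loss of the same proteins causes the forms of Griscelli syndrome. Melanoregulin (Mreg) is the product of the dilute suppressor locus, whose loss partly restores coat colour in those mutants. Rab38, mutated in the chocolate mouse, and its close relative Rab32 act earlier and in part redundantly: they direct the enzymes of the tyrosinase family to the maturing melanosome.

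The genes lie at 6 places on 4 chromosomes of the mouse build GRCm38, the build named in the submitters' processing notes, with spans from GENCODE vM21. Mreg (chr1:72159442-72212307, minus strand) and Mlph (chr1:90915085-90951142, plus strand) share chromosome 1. Rab27a (chr9:73044854-73097629) and Myo5a (chr9:75071015-75223688) share chromosome 9, both on the plus strand. Rab38 lies at chr7:88430273-88491572 on the plus strand, and Rab32 at chr10:10545002-10558265 on the minus strand. Myo5a, the longest at 152674 bases, has 14 annotated transcripts, and its 6 coding ones end at 6 different positions. Counts from 3′ ends sum over such ends and do not tell splice forms apart. An annotated processed pseudogene, Gm27186, overlaps Rab27a on the same strand for 149 exonic bases, and Rab27a shares stretches of at least 100 bases at 95% identity or more with 4 other genes. Its counts are uncertain to that extent, while no such stretch was found for the other 5 members.

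Promoters were searched for CACGTG, the E-box that MITF and other related factors bind and that reads the same on both strands, and for CATGTG on either strand. The windows are the 250 bases before each RefSeq start on GRCm38.p6. Windows were available for 5 of the 6 members, all but Rab38, and numbered 7 in all. The 2 windows of Mreg overlap over most of their length, so they count nearly the same sequence again. CACGTG was found in 2 of these 7 windows, one of Mlph and one of Rab27a, against 6.02% of all 32851 windows, and CATGTG in 0 of 7, against 12.25%. The sequences below, 5′ to 3′ along the gene's strand, show these 2 windows and those of Mreg and Myo5a, since these 4 genes are the ones with the higher values described next. Capitals mark CACGTG. The Mlph window is chr1:90914850-90915099 (plus strand), with the motif beginning 48 bases before the start. That of Rab27a belongs to its second annotated start, chr9:73063898-73064147 (plus strand), with the motif 246 bases before it. The Mreg window is chr1:72212308-72212557 (minus strand) and that of Myo5a chr9:75070956-75071205 (plus strand).
Mlph: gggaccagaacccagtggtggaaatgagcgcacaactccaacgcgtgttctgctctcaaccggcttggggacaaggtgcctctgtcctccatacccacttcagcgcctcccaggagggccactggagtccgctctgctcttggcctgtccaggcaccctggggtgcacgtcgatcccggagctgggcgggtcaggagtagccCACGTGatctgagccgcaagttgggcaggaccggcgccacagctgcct
Rab27a: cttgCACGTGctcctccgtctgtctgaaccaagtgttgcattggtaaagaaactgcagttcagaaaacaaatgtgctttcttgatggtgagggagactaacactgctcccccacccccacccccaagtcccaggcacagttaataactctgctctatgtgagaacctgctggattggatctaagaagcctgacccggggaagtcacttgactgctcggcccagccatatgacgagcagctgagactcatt
Mreg: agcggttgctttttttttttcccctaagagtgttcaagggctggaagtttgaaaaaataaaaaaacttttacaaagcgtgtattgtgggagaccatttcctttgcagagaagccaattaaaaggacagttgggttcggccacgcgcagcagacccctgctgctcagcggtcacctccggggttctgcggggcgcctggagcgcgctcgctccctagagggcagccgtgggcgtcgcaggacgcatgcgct
Myo5a: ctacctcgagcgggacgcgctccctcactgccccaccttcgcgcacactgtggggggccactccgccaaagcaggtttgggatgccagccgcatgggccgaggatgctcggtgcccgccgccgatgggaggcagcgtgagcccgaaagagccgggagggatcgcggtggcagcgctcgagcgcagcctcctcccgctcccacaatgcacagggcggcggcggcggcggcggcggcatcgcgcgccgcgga
GC content of these windows was 64.8% in Mlph, 51.6% in Rab27a, 54.8% in Mreg and 74.0% in Myo5a, beside a median of 52.4% over all windows. A match of letters is not a measured binding site, and the counts do not say which Rab27a start was used.

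Counts on genes ranged from 3819605 to 7311131 per library. Pair 2 stood apart from the others. A row named RP23-81C12.3 took 53.9% of the gene counts of its HPC library and 27.1% of its LPC library, against 3.54% to 5.03% elsewhere, and genes with at least 1 count numbered 10620 and 12778, against 14130 to 15002. The 6 members together received 1077 and 1829 counts there, and 4719 to 11920 in each of the other libraries. Values are therefore given below as CPM, counts scaled to a common library size, with sizes set by edgeR's TMM method, pair by pair, and with and without pair 2. All 7 melanocyte-lineage markers listed were tested, and their summed level was 4443 CPM or more in every library. Most of the sum was Dct, at 4002 CPM in the HPC library of pair 2, which had the lowest sum. In that library each of the 7 was lower than in the HPC libraries of pairs 1 and 3. Pmel was at 148 CPM there against 2176 and 3624, Tyrp1 at 132 against 1613 and 1852, and Mitf at 29.1 against 153 and 325. Tyr had 2 counts there. In the LPC library of pair 2, Pmel was at 222 CPM against 1344 and 2073 in those of pairs 1 and 3. Tyrp1 was at 252 CPM against 1628 and 1389, and Mitf at 38.3 against 114 and 300. Mlana, Dct and Sox10 were also lowest there among the LPC libraries, while Tyr was lowest in that of pair 3.

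Mreg, Rab27a, Mlph and Myo5a were higher in the high-pigmented library of pairs 1 and 3, and Mreg and Rab27a also in pair 2. Rab38 and Rab32 were slightly higher in pair 1 and lower in pairs 2 and 3. Over all 6 libraries none of the 6 passed the test. With pair 2 left out and the pairs kept together, Mlph, Mreg and Myo5a passed and were higher in high-pigmented cells. In that fit 0.932% of all genes tested passed in that direction. The same libraries fitted without the pairing gave 0 calls. In every member the values of the groups overlapped, so 0 of 6 had all HPC values above all LPC values, beside 2.43% of all genes tested.

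**Figure D1:**
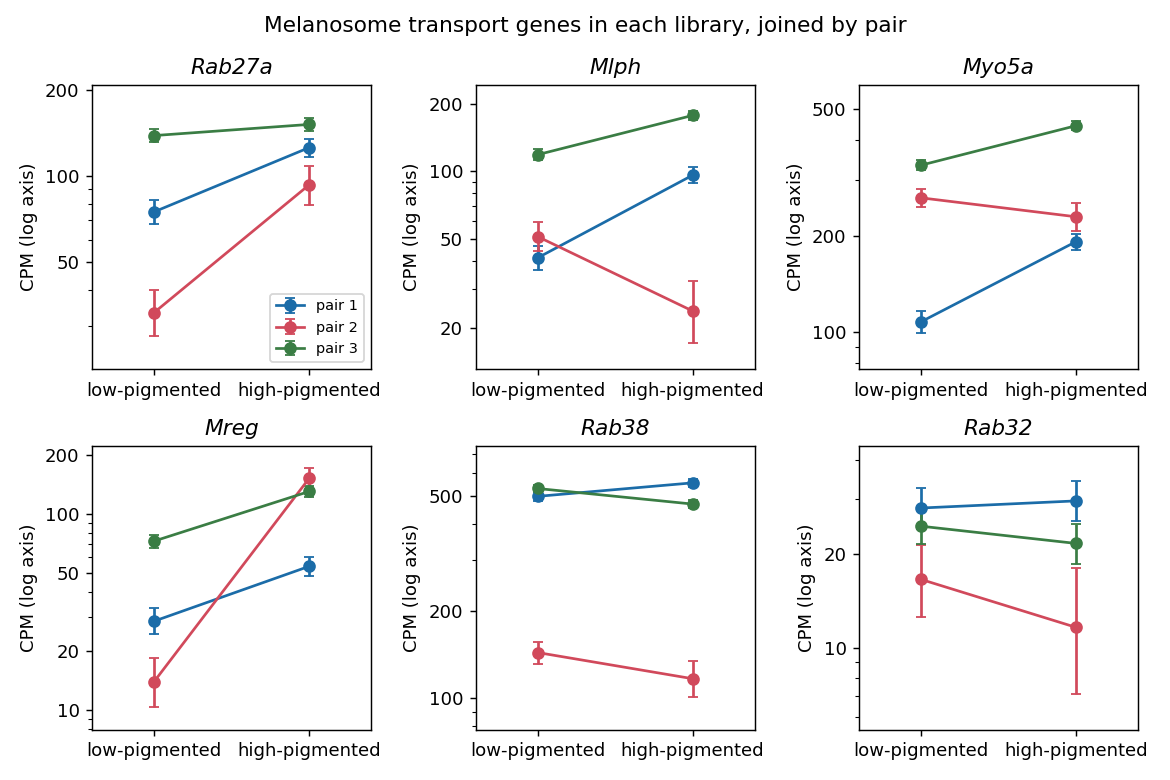
Level of each member in the 6 libraries, in CPM on a log axis, with HPC and LPC libraries of the same pair joined by a line and bars for the exact 95% counting interval. Mreg and Rab27a are higher in HPC in all 3 pairs, and the pair 2 lines of Mlph and Myo5a slope the other way.

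Mreg showed the widest difference of the members in pairs 2 and 3, and the second widest, after Mlph, in pair 1. It had 332, 260 and 1111 counts in HPC (pairs 1, 2 and 3 in this order throughout) and 172, 49 and 692 in LPC, or 54.0, 151 and 130 CPM against 28.4, 14.0 and 72.6 CPM. In such bulk libraries, fewer cells with a transcript and less of it per cell cannot be told apart. Every HPC value lay above its LPC partner, but the HPC value of pair 1 was below the LPC value of pair 3, so the groups overlapped. The HPC library was 1.90-fold higher in pair 1 (exact 95% counting interval 1.58 to 2.30), 10.8-fold in pair 2 (7.94 to 15.0) and 1.79-fold in pair 3 (1.62 to 1.97). These intervals cover counting error only. Pairs 1 and 3 gave nearly the same ratio at different levels, and pair 2 a much larger one, which rests on the 49 counts of its LPC library. Among all genes tested, the within-pair difference of Mreg stood at percentile 93.9, 96.0 and 92.5 in the 3 pairs. The group means were 112 ± 51.1 CPM (SD, n = 3) in HPC and 38.4 ± 30.6 CPM (SD, n = 3) in LPC.

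Rab27a, the membrane anchor of the complex, was also higher in HPC in every pair, by unequal amounts. It had 772, 160 and 1294 counts in the HPC libraries and 454, 117 and 1318 in the LPC libraries, or 126, 93.1 and 151 CPM against 75.03, 33.4 and 138 CPM. The difference nearly vanished in pair 3, where the ratio was 1.09 (1.01 to 1.18), against 1.67 (1.49 to 1.88) in pair 1 and 2.78 (2.18 to 3.56) in pair 2. The groups overlapped because the LPC value of pair 3 exceeded the HPC values of pairs 1 and 2. Group means were 123 ± 29.1 CPM (SD, n = 3) in HPC and 82.3 ± 52.8 CPM (SD, n = 3) in LPC. Mreg and Rab27a were the 2 members of 6 that were higher in HPC in all 3 pairs, a pattern that 12.9% of all genes tested shared.

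Mlph, the linker between Rab27a and the motor, turned over in pair 2. Its counts were 590, 41 and 1516 in the HPC libraries and 249, 179 and 1129 in the LPC libraries, or 96.0, 23.9 and 177 CPM against 41.2, 51.2 and 119 CPM. The HPC value of pair 2, from 41 counts, was the lowest of the 6 and that of pair 3 the highest. HPC was 2.33-fold (2.01 to 2.72) of LPC in pair 1 and 1.496-fold (1.38 to 1.62) in pair 3, but 0.466-fold (0.324 to 0.658) in pair 2. In pair 1 the difference stood at percentile 96.9 of all genes, the highest of any member in any pair, and in pair 2 at percentile 31.3.

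Myo5a, the motor itself, followed Mlph in direction with smaller steps. It had 1181, 395 and 3796 counts in the HPC libraries and 652, 922 and 3179 in the LPC libraries, or 192, 230 and 444 CPM against 108, 264 and 334 CPM. Both libraries of pair 3 lay above all others, and the lowest value was the LPC library of pair 1. The ratio was 1.78 (1.62 to 1.97) in pair 1, 1.33 (1.27 to 1.39) in pair 3 and 0.872 (0.773 to 0.982) in pair 2. The pair 2 value was that of a middling gene, at percentile 50.2.

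Rab38 was the member with the highest mean count level, and its group means were nearly equal. It had 3418, 201 and 4018 counts in HPC and 3022, 504 and 5065 in LPC, or 556, 117 and 470 CPM against 499, 144 and 532 CPM. Both libraries of pair 2 were low, and the other 4 lay close together. The HPC to LPC ratio was 1.11 (1.06 to 1.17) in pair 1, 0.812 (0.686 to 0.958) in pair 2 and 0.884 (0.847 to 0.921) in pair 3. Means were 381 ± 233 CPM (SD, n = 3) in HPC and 392 ± 215 CPM (SD, n = 3) in LPC, a gap far smaller than either spread.

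Rab32 had the fewest counts, 182, 20 and 185 in HPC and 170, 58 and 234 in LPC, or 29.6, 11.6 and 21.6 CPM against 28.1, 16.6 and 24.6 CPM. Its ratios were 1.05 (0.850 to 1.31), 0.702 (0.400 to 1.18) and 0.881 (0.722 to 1.07), so counting error alone spanned no difference in each pair. Of the 18 intervals, 3 for each member, the 15 of the other members left out a ratio of 1. The share of such intervals over all genes tested was not computed, so this count does not set the members apart. Differences between libraries beyond counting error are not in the intervals.

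**Figure D2:**
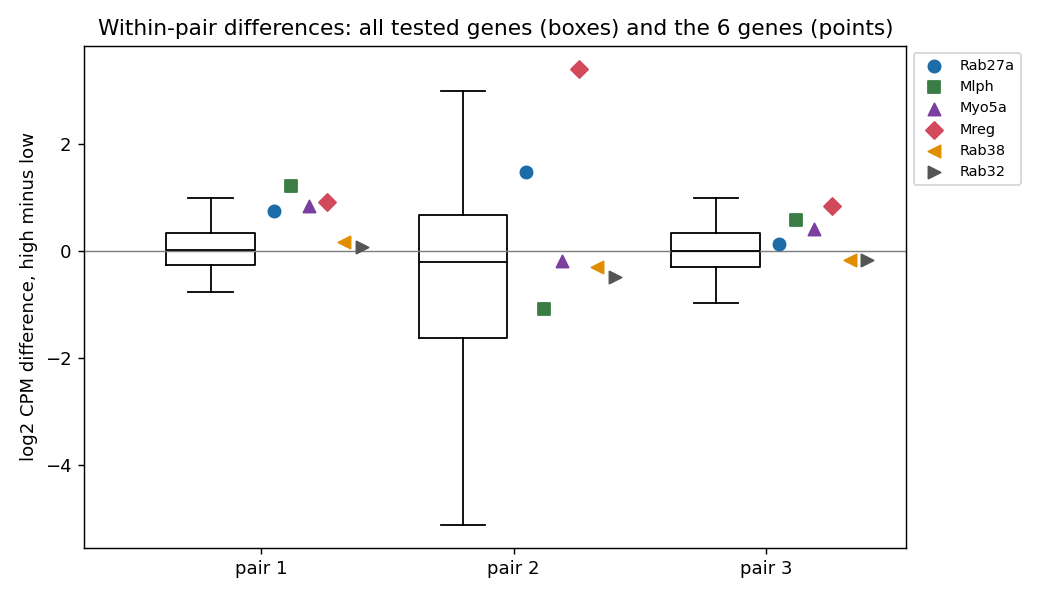
Difference in log2 CPM, HPC minus LPC, for each member in each pair, beside a box plot of all 11324 genes tested (box, quartiles; line, median; whiskers, percentiles 5 and 95). Mreg lies above the box in all 3 pairs, while Rab38 and Rab32 lie within it, and the box is widest in pair 2.

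The pairs gave different counts of higher members. All 6 were higher in HPC in pair 1, 4 in pair 3 (all but Rab38 and Rab32) and 2 in pair 2. The median within-pair log2 difference of all genes was 0.02, -0.20 and -0.00 in pairs 1, 2 and 3, and the interquartile range was 0.61, 2.30 and 0.64. A difference of a given size in pair 2 therefore stood out less among all genes than the same size in the other pairs: the 10.8-fold ratio of Mreg there ranked at percentile 96.0, and its 1.90-fold ratio in pair 1 at 93.9. Scaling by total gene counts in place of TMM moved the log2 differences of pair 2 by -0.70, and those of pairs 1 and 3 by -0.01 and -0.00. The members that were higher in each pair were the same under TMM, total counts, DESeq2 size factors and TMM without the RP23-81C12.3 and mitochondrial ribosomal RNA rows.

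The main test compared the 3 HPC with the 3 LPC libraries in edgeR's quasi-likelihood model without the pairing. None of the 6 members passed an adjusted p of 0.05 there, nor did any other gene (0% of 11324). Before adjustment 38 genes had p under 0.05, and DESeq2 called 0, with 134 at that mark. Mreg had the largest log2 fold change, 1.53 ± 0.67 (SE), followed by Rab27a at 0.58 ± 0.54, Mlph at 0.50 ± 0.72 and Myo5a at 0.30 ± 0.53. Rab38 was at -0.04 ± 0.68 and Rab32 at -0.13 ± 0.55. The adjusted p was 0.9996 for each. At an unadjusted p under 0.05, 1 of the 6 members, Mreg, was higher in HPC, beside 0.132% of all genes. It missed that mark when the RP23-81C12.3 and mitochondrial ribosomal RNA rows were left out. The members' median log2 fold change was 0.40, beside -0.04 over all genes. The sign was decided by 1 library in 4 members. Mlph was at -0.23 without the HPC library of pair 3, Myo5a at -0.17 without that library and at -0.04 without the LPC library of pair 1. Rab38 was at 0.39 without the HPC library of pair 2, at 0.18 without the LPC library of pair 1 and at 0.25 without that of pair 3. Rab32 was at 0.15 without the HPC library of pair 2 and at 0.04 without the LPC library of pair 1. Mreg and Rab27a were on the higher side whichever library was left out, though their size moved with the LPC libraries: Mreg reached 2.39 and Rab27a 1.19 without that of pair 3, and Rab27a fell to 0.21 without that of pair 2.

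A fit that keeps the paired libraries together removes what the libraries of a pair have in common. With this replicate block and all 6 libraries, 0 of 6 members and 0 genes passed (213 genes, 1 of them the member Mreg, had an unadjusted p under 0.05). Mreg was at 1.65 ± 0.62 and Rab27a at 0.77 ± 0.32, with an adjusted p of 0.927 for every member. With the block and pair 2 left out, 3 of the 6 members passed, all higher in HPC, beside 0.932% of the 11906 genes tested that passed in that direction. Mlph was at 0.87 ± 0.17 on the log2 scale (adjusted p = 0.0102 in edgeR), Mreg at 0.87 ± 0.18 (adjusted p = 0.0103) and Myo5a at 0.61 ± 0.14 (adjusted p = 0.0267), each higher in the 2 pairs kept. Rab27a was at 0.42 ± 0.16 and did not pass (adjusted p = 0.273), and Rab38 (-0.02 ± 0.13) and Rab32 (-0.07 ± 0.23) lay near 0 with adjusted p of 0.971 and 0.953. The members' median was 0.51, beside 0.00 over all genes. Without the block the same 4 libraries gave 0 calls. The calls thus rest on both the pairing and the omission of pair 2, a choice made with the composition of pair 2 known, and with 2 pairs they carry little replication. In the omitted pair 2, Mlph (0.466-fold) and Myo5a (0.872-fold) were lower in HPC, and Mreg was higher (10.8-fold). The common biological coefficient of variation was 71.6% without the block, 52.0% with it and 19.5% with pair 2 also left out. In limma-voom with library weights and the block, 34 genes passed and 0 members did. Mreg was at 0.96 there (adjusted p = 0.0927) and Mlph at 0.80 (adjusted p = 0.107).

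**Figure D3:**
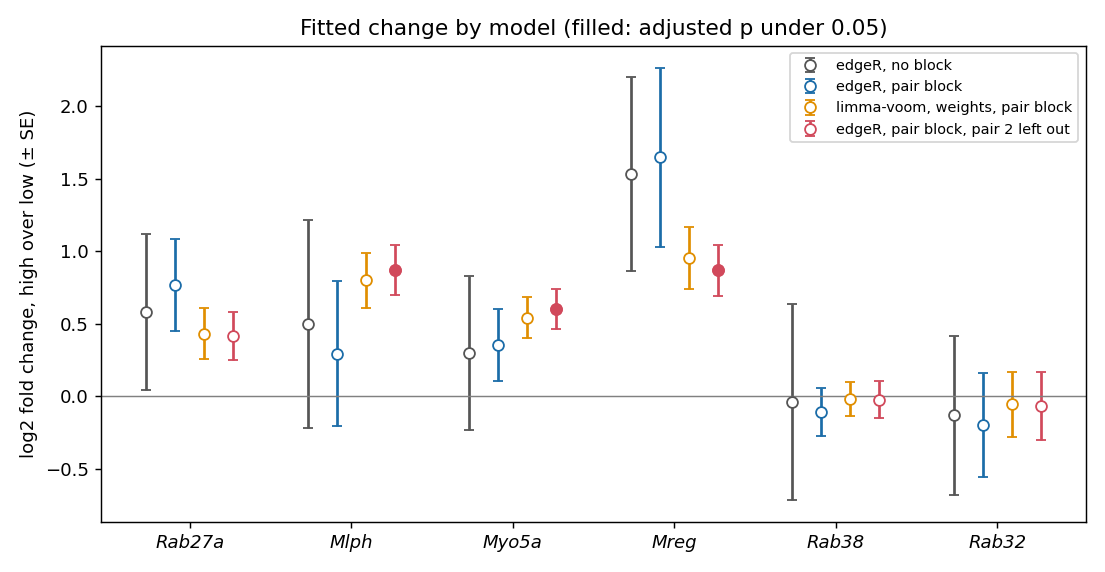
Log2 fold change of each member, HPC over LPC, under 3 edgeR fits and limma-voom, with bars of ± 1 SE and filled points for an adjusted p under 0.05. Mlph, Mreg and Myo5a are filled in the edgeR block fit that leaves out pair 2, and in no other fit shown.

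Ratios between members within 1 library need no library size. Those among Rab27a, Mlph and Myo5a and that of Rab32 to Rab38 were planned, and those of the other members to Rab38 were added after the values were seen. No test was made on them. Within pairs Rab32 changed little relative to Rab38: the log2 ratio moved from LPC to HPC by -0.08, -0.21 and -0.00 in pairs 1, 2 and 3. Between pairs it differed more, at 0.0995 and 0.115 Rab32 counts for each Rab38 count in pair 2 against 0.0460 to 0.0563 in the other 4 libraries. Relative to Rab38, Mreg was higher in HPC by 0.77, 3.73 and 1.02, Rab27a by 0.59, 1.78 and 0.31, and Myo5a by 0.68, 0.10 and 0.59. These 3 genes were thus higher relative to Rab38 in all 3 pairs, Myo5a by little in pair 2. In log2 CPM Myo5a itself was lower in HPC in pair 2, at -0.20, and Rab38 lower still, at -0.30. Rab38 was also lower in pair 3, at -0.18, and a lower Rab38 raises each ratio to it. Mlph was higher relative to Rab38 by 1.07 in pair 1 and 0.76 in pair 3, and lower in pair 2, at -0.80. In the HPC library of pair 2, Mreg counts exceeded those of Rab38, at 1.29 to 1, while in the other 5 libraries the ratio lay between 0.0569 and 0.277.

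Within the capture complex, linker and motor moved against the anchor in pair 2. The log2 ratio of Mlph to Rab27a changed by 0.48, -2.58 and 0.45 in pairs 1, 2 and 3, and that of Myo5a to Rab27a by 0.09, -1.67 and 0.28. In the LPC library of pair 2, 7.88 Myo5a counts were found for each Rab27a count, the highest of the 6 libraries. Mlph relative to Myo5a changed by 0.39, -0.90 and 0.17. In pairs 1 and 3 the log2 ratios within the complex thus differed between HPC and LPC by at most 0.48.

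**Figure D4:**
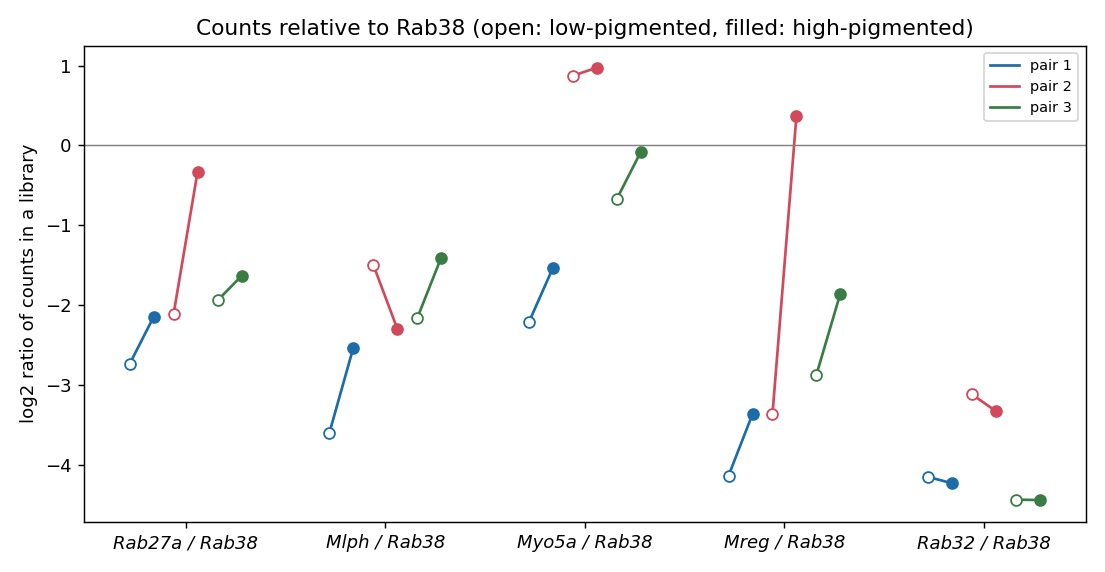
Log2 ratio of counts of each other member to Rab38 in the 6 libraries, with paired LPC (open) and HPC (filled) libraries joined. The Rab32 lines are nearly flat, and the Mreg line of pair 2 is the steepest.

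By mean CPM over all 6 libraries the order was Rab38 (386 ± 200, SD, n = 6), Myo5a (262 ± 117), Rab27a (103 ± 44.3), Mlph (84.7 ± 57.5), Mreg (75.05 ± 55.1) and Rab32 (22.02 ± 6.91). These are counts of 3′ ends, which do not scale with transcript length. Myo5a lay above Rab27a in 6 of 6 libraries. The other neighbours exchanged places in some libraries: Rab38 was above Myo5a in 4 of 6, Rab27a above Mlph in 4 of 6, Mlph above Mreg in 5 of 6 and Mreg above Rab32 in 5 of 6. Rab27a, Mlph and Mreg thus formed a middle group whose means lay within their spread.

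The nearest profiles were found by the root mean square difference of log2 CPM, each gene centred on its own mean over the 6 libraries, among 7781 genes averaging at least 10 CPM. The points share their libraries, so pair 2 weighs on every value. The 2 nearest to Mreg were Tspan7 (0.26) and Pias3 (0.31), and to Rab27a Uhmk1 (0.15) and Arl8a (0.16). Those of Mlph were Bace2 (0.21) and Ifi27l1 (0.27), and those of Myo5a Neu1 (0.16) and Lphn1 (0.19). Rab38 was nearest to Setd1a (0.08) and Usp4 (0.09), and Rab32 to Map4k3 (0.06) and Emc2 (0.08). No member was among the 2 nearest of another. Among members, Rab38 and Rab32 were the closest pair at 0.53, followed by Rab27a and Rab32 at 0.71, and Mreg and Rab38 were farthest apart at 1.46. Rab32 ranked only 667 among the 7781 candidates for Rab38, and Rab38 ranked 2115 for Rab32.

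Other genes of melanosome transport were read from 6 lists of 58 genes. Of these, Myrip, Sytl1, Sytl3, Sytl5, Chml and Myo5b were not analysed here. In the remaining genes, 46 were tested in the main fit, 21 of them on the higher side (47.0% of all genes tested were), their median being -0.07 on the log2 scale, and 0 passed. In the block fit without pair 2, 0 of 47 passed in either direction. Only 155 of all 11906 genes tested passed in that fit, so 0 of 47 says little about these lists. The smallest adjusted p among the 47, 0.116, was that of Exoc4, a subunit of the exocyst that tethers secretory vesicles, at 0.61 ± 0.18. It was picked out after its values were seen. Within pairs, 8 of the 46 were higher in HPC in all 3 pairs, as were 12.9% of all genes tested, and 8 were lower in all 3. The share of all genes that were lower in all 3 pairs was not computed.

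The counts below give first the main fit and then the block fit without pair 2, and no gene counted passed in either. Rab27 effectors were on the higher side in 3 of 3 tested and 3 of 4. The most abundant, Unc13d, which primes Rab27-bound vesicles for fusion, averaged 217 CPM in HPC and 200 CPM in LPC. Of the genes that activate, inactivate, prenylate or extract Rab27, 3 of 8 and then 5 of 8 were on the higher side. The most abundant of them was Gdi2, which draws Rab proteins off membranes, at 95.05 against 77.4 CPM. For Rab32 and Rab38, 3 of 5 and then 2 of 5 genes were on the higher side, in a list of their partners and the related Rab7l1. The most abundant of them was Sgsm2, a Rab GTPase-activating protein, at 105 against 94.1 CPM.

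Actin motors, their light chains and actin nucleators were on the higher side in 2 of 10 in the main fit (median log2 fold change -0.18) and in 6 of 10 in the block fit without pair 2 (median 0.11). Genes of microtubule transport were on the higher side in 6 of 14 and 4 of 14. The most abundant, Kif5b, the kinesin heavy chain, averaged 550 CPM in HPC and 905 CPM in LPC and was lower in HPC in all 3 pairs, at -0.72 ± 0.40 in the main fit and -0.28 ± 0.12 in the block fit without pair 2 (adjusted p = 0.321). Recycling and release genes were on the higher side in 4 of 6 and 5 of 6, with Rab11a, a GTPase of recycling endosomes, at 89.8 against 76.7 CPM.

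**Figure D5:**
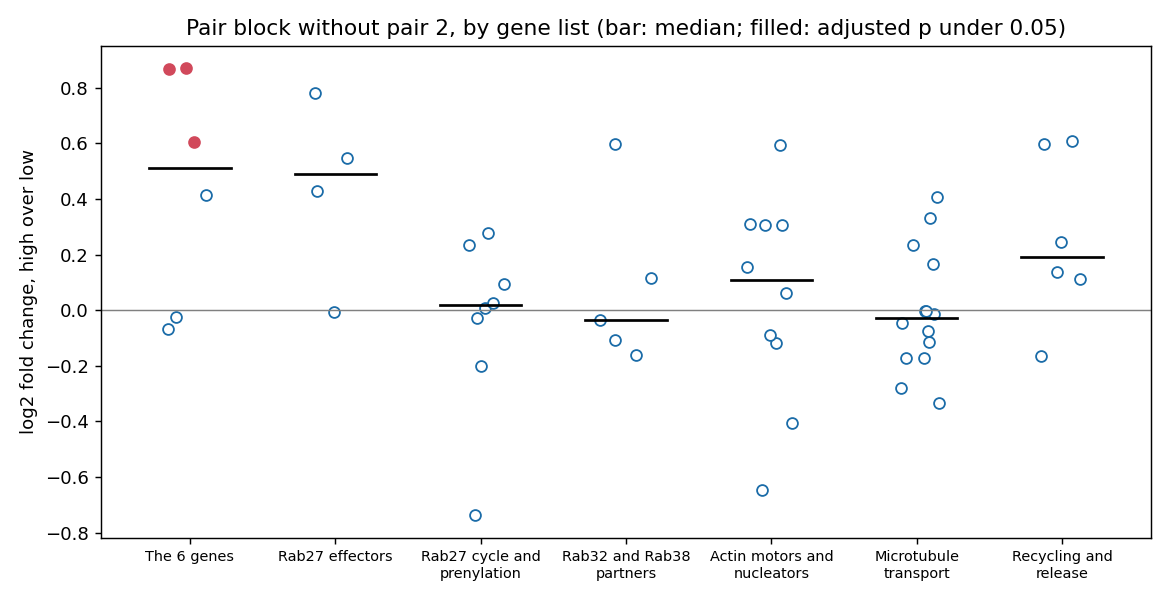
Log2 fold change of the 6 members and of the tested genes of each related list, in the block fit without pair 2, with a bar at each median and filled points for an adjusted p under 0.05. The members' median is 0.51 and 3 of them are filled, and 0 genes of the related lists are, beside 155 of all 11906 genes tested that passed.

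The enzymes that Rab38 and Rab32 carry moved unevenly. Tyr changed by -0.04, -2.01 and 2.99 on the log2 scale in pairs 1, 2 and 3, from as few as 2 counts in a library, Tyrp1 by -0.01, -0.94 and 0.41, and Dct by 0.16, -0.47 and 0.14. In the block fit without pair 2, all 7 melanocyte-lineage markers (these enzymes, Mlana, Pmel, Sox10 and Mitf) were on the higher side, as were 50.1% of all genes tested. Their median was 0.25 on the log2 scale. Of them, 1 passed, beside 0.932% of all genes that passed on the higher side: Pmel, which forms the fibrils of the melanosome, at 0.74 ± 0.11 (adjusted p = 0.000811 in edgeR). The adjusted p of the others ran from 0.493 (Mitf) to 0.878 (Tyr) in that edgeR fit. The part of these marker values in the calls of Mlph, Mreg and Myo5a was not tested.

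Markers of other cell types were few. Of 5 leukocyte markers, Cd68 and Lyz2 were rows of the table, with a summed level of 5.69, 26.8 and 2.69 CPM in HPC and 3.31, 0 and 1.26 CPM in LPC. Cd68, a lysosomal protein abundant in macrophages, was higher in HPC in all 3 pairs, as were Mreg, Rab27a and 12.9% of all genes tested. Its log2 differences of 0.51, 6.33 and 1.02 rest on 24, 46 and 23 counts in HPC against 16, 0 and 11 in LPC. With 0 counts in 1 library, the size of the pair 2 value depends on the prior count. Lyz2 differed by 1.09, 0 and -0.39, from at most 11 counts in a library. Of 5 fibroblast markers, Col1a1, Col1a2 and Pdgfra were rows, and they summed to 0.935 to 33.2 CPM in HPC and 2.57 to 5.29 CPM in LPC. Pecam1, the 1 endothelial marker of 3 that was a row, had 11.6 CPM in 1 library and 0 counts in the other 5. Epcam, the 1 keratinocyte marker of 5 that was a row, had at most 4.002 CPM. The other markers of these lists, among them the leukocyte gene Ptprc and the keratins, and both erythroid markers were not analysed here. The highest leukocyte, fibroblast and endothelial sums were all in the HPC library of pair 2, the library of the 10.8-fold Mreg ratio. Not every marker was high in that library: Lyz2, Col1a1 and Epcam had 0 counts in it. Col1a1 was lower in HPC in all 3 pairs, with log2 differences of -0.90, -3.11 and -1.67 from at most 22 counts in a library. Epcam was highest in the LPC library of pair 2. The part of these markers in the differences of Mreg and Rab27a was not tested.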

How the data were processed

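RNA of sorted B16-F10 cells was sequenced as QuantSeq 3′ FWD libraries on a NextSeq 500, per the labels' protocols, and the submitters' processing notes name STAR and GRCm38. The authors deposited whole-number counts of reads per gene, made with HTSeq per the table's name and tally rows. The use of strand and the annotation are not given in the sources used here, and no molecular identifiers are mentioned, so counting intervals do not cover copied reads. Reads tallied as outside genes or on several genes stayed out of sizes and tests.

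Genes were matched by mouse symbol, because the human column lists Myo5a under SCLT1 and Rab32 under RAB38. Counts were tested in edgeR 4.0.16 (robust quasi-likelihood, filterByExpr with a minimum count of 10, TMM, no covariate) in R 4.3.3, with Benjamini-Hochberg adjustment over all genes and a threshold of 0.05. The SE given for edgeR is the absolute log2 fold change divided by the square root of the F statistic. That of limma-voom comes from its own model. CPM use TMM sizes, and log2 CPM a prior count of 2. Alternatives were the pair as a block, pair 2 left out, DESeq2 1.42.0, limma-voom (limma 3.58.1), other scalings and filters, and leaving out each library. The scripts were tested on simulated data without pair differences and with less spread than the fits of all 6 libraries had. That test checks the code and does not measure the power or error of the fits reported. The pairing comes from the title suffix: deviations from the group mean correlated over genes at 0.466, 0.316 and 0.422 between same-suffix libraries (minimum required 0.1), so the suffix was taken to pair them. Libraries of the same group differed by more than sampling noise in each of 6 comparisons. The text names all members, related genes that passed or were the most abundant of their list, and the 2 nearest profiles of each member. The most abundant gene of 1 list is not reported here. The members, lists and alternatives were chosen with earlier results of these data known. Spans come from GENCODE vM21 and promoters from RefSeq (GRCm38.p6). Figures were drawn with matplotlib 3.10.9.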

Additional observations from a re-analysis of the deposited data

Results flagged for a closer look

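A signal lay outside the gene counts that the comparisons use. Reads that overlapped no gene made up 12.4% to 29.5% of the tallied reads of a library, and reads that overlapped several genes 0.487% to 2.51%. The HPC library of pair 2 had the most reads outside genes and the fewest on several genes, and the LPC library of pair 3 the reverse. Whether any of these reads came from the 6 melanosome transport genes was not analysed here.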

How the results depend on the processing

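Of 84 values (6 members under 14 alternatives), 73 kept the direction and the side of the threshold of the main test, 3 came to pass it and 8 turned over. With the replicate block and pair 2 left out, 3 members and 155 genes passed, and with limma-voom, weights and block 34 genes and 0 members. The block with all 6 libraries, DESeq2, its size factors, no filter on low counts and the removal of 3 abundant rows changed no direction and no call of a member. Leaving out each library in turn, without the block, gave no member an adjusted p under 0.05, and log2 fold changes of -0.23 to 1.12 for Mlph, -0.17 to 0.65 for Myo5a, -0.44 to 0.39 for Rab38, -0.47 to 0.15 for Rab32, 1.14 to 2.39 for Mreg and 0.21 to 1.19 for Rab27a. The cause of these turns was not tested. Depth limits Rab32 and the pair 2 values of Mlph and Mreg, which rest on as few as 20, 41 and 49 counts.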
